A study of Sus scrofa with 26 samples.

Results

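Peroxiredoxins and the thioredoxin system were followed in pig subcutaneous adipose tissue (SCAT), the fat depot under the skin. Probes that were not controls were taken when their symbol, accession or description named 1 of 9 pig genes: PRDX1, PRDX2, PRDX3, PRDX4, PRDX5, PRDX6, TXN, TXN2 and TXNRD1. This gave 54 probes of the 60305 on the array, and 53 of them passed the filter on dim signals. The other was a TXNRD1 probe well above background on 1 of 26 arrays. Left out were 2 probes whose descriptions name a like protein of another species, A_72_P189086 (HS minus TN -0.10, adjusted p-value 0.674) and A_72_P116871 (0.01, 0.953). PRDX3 had 16 probes, PRDX6 had 9, TXNRD1 had 8, PRDX4 had 6, TXN had 5, PRDX2 had 4, PRDX5 had 3, PRDX1 had 2 and TXN2 had 1. The study asked how pigs respond to heat stress, and its design held 3 breeds. Each of 26 pigs was measured on 1 one-colour array of 60-base probes.

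The animals were castrated male growing pigs raised in Guadeloupe that entered the climatic room at 11 weeks of age. The breeds were Creole, a local breed of the tropics, Large White (LW), and their cross (F1). At thermoneutrality (TN, 24 °C) there were 3 Creole, 4 F1 and 4 LW pigs. The heat-stressed arm (HS) held 5 pigs per breed, kept for 5 days by the series text, or for 4 or 5 days by the study's methods, at a temperature that the sample labels give as 30 °C and the series text as 32 °C. TN pigs were slaughtered before the temperature rose, so the effects of temperature, slaughter day and age at slaughter cannot be told apart. By the study's methods the pigs came in blocks of 4 littermates, with 3 blocks for each breed. The labels do not give the litter, so that all tests here treat littermates as independent, and p-values between breeds may be too small. Pigs of a breed shared pens of 3, and each pen was slaughtered at a single temperature. The labels do not give the pen or the slaughter day, and pigs are treated as independent of these too. The p-values between temperatures may thus also be too small. The label of the tissue was borne out by its markers, since all 8 adipocyte markers examined, ADIPOQ, PLIN1 and FABP4 among them, were well above background on the 26 arrays. Skeletal muscle markers were also present and variable, with a score between -2.23 and 2.76. Levels are log2 of the quantile-normalized median signal, and a difference of 1 on this scale is a doubling.

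Peroxiredoxins are small enzymes that reduce hydrogen peroxide and organic peroxides with a reactive cysteine. Most of them are returned to the reduced state by thioredoxin, which in turn is reduced by thioredoxin reductase at the expense of NADPH. PRDX1 and PRDX2 are cytosolic, PRDX3 is mitochondrial and served by the mitochondrial thioredoxin TXN2, PRDX4 resides in the endoplasmic reticulum, PRDX5 is found in several compartments, and PRDX6 uses a single catalytic cysteine and also acts on phospholipids.

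The 54 probes held 52 different sequences, and several read the same stretch of a transcript, so that probes of a gene are repeated readings and not replicates. The sequences below, taken from the array files and written 5′ to 3′, show which readings share bases. For PRDX1, PRDX3 and PRDX6, the capitals mark the stretch shared by both probes of the pair. For TXN, the capitals mark 59 bases of each probe that are the reverse complement of the other.
PRDX1 A_72_P412538: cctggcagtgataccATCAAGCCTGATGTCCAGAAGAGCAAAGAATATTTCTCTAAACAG
PRDX1 O9257: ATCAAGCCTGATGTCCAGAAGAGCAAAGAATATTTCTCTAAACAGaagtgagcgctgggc
PRDX3 A_72_P585356: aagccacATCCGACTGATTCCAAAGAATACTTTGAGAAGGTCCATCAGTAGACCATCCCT
PRDX3 A_72_P341458: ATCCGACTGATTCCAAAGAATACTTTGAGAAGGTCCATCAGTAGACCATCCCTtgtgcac
PRDX6 A_72_P575489: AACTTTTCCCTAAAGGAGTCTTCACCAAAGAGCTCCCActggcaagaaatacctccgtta
PRDX6 A_72_P665743: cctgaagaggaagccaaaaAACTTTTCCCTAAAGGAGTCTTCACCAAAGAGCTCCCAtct
TXN A_72_P177678: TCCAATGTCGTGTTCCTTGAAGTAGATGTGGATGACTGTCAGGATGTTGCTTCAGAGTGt
TXN O7867: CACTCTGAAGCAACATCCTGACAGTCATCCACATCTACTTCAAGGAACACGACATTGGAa

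The shared bases set the scale of the measurement error. Both PRDX1 probes share 45 bases and their levels correlated at r = 0.988 over the 26 arrays. The PRDX3 pair shares 53 bases (r = 0.977) and the PRDX6 pair 38 bases (r = 0.957). A PRDX2 pair that is not printed, A_72_P383583 and O453, shares 54 bases and correlated at 0.865. Differences between groups enter all of these r values. A pair of TXN probes with identical sequence gave differences between HS and TN of -0.14 and -0.13. An identical pair of PRDX5 probes gave -0.03 and -0.07. Identical sequences thus returned similar differences. The TXN probes of opposite strand correlated at 0.6 over the arrays. O7867 counts as a TXN probe through its symbol alone.

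The question of the first comparison was which of these genes changed under heat. PRDX3 was lower in HS than in TN at all 16 of its probes. Its brightest probe fell by 0.45 on the log2 scale (SE 0.0711), to 0.73 of the TN level. No probe of PRDX1, PRDX2, PRDX4, PRDX5, TXN, TXN2 or TXNRD1 passed the threshold in this comparison. PRDX6 passed it at 1 of 9 probes. In all, 17 of the 53 tested probes were called, all lower, whereas 7.02% of all tested probes were called lower and 12.2% in either direction. The 17 probes stand for 2 genes. Taking the brightest probe of each gene, 1 of 9 members was called, beside 12.5% of all named genes. The median difference was -0.17 over the member probes and 0.00 over all tested probes (0.00242).

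**Figure D1:**
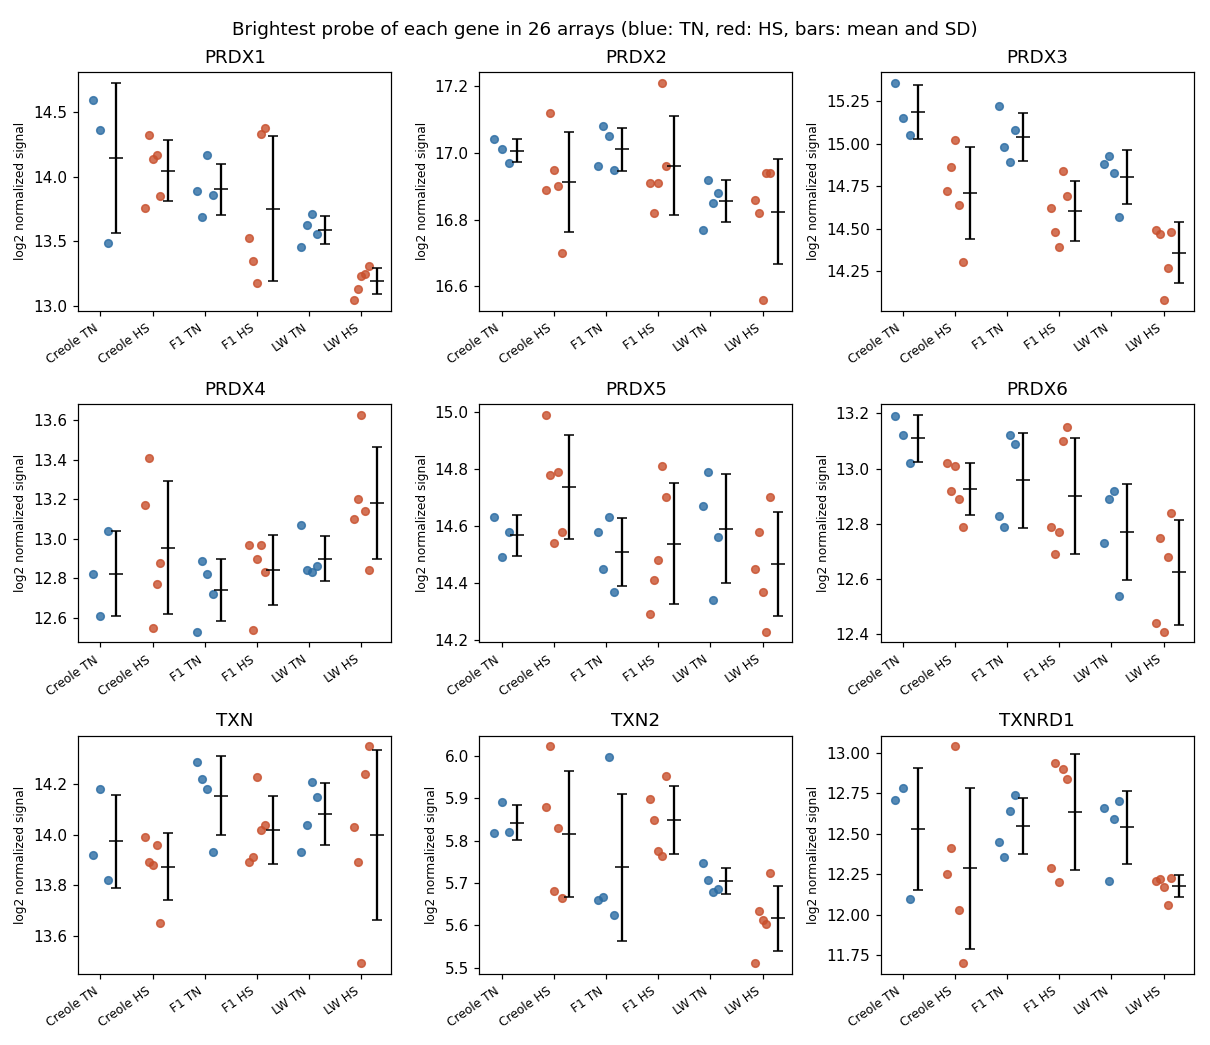
Level of the brightest probe of each of the 9 genes (log2 normalized signal, y axis) in the 6 groups of breed and temperature (x axis), with points for arrays, blue for TN and red for HS, and bars for the mean and SD. In PRDX3 all HS points lie below the TN points of the same breed, and in PRDX1 the LW points lie between 13.05 and 13.71.

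PRDX3, the peroxide scavenger of the mitochondrial matrix (chr14:129079050-129090790 in Sscrofa11.1), had levels of 15.36, 15.15 and 15.05 in the 3 Creole TN pigs at its brightest probe, A_72_P496759. The 5 Creole HS pigs had 14.72, 14.86, 15.02, 14.64 and 14.3. In F1 the TN pigs had 15.22, 14.98, 14.89 and 15.08. The F1 HS pigs were all lower than these, with 14.62, 14.48, 14.39, 14.84 and 14.69. The LW TN pigs had 14.88, 14.93, 14.83 and 14.57, and the LW HS pigs 14.49, 14.47, 14.08, 14.27 and 14.48. At this probe each of the 15 HS pigs was below the lowest TN pig of its own breed. Across breeds the temperatures overlapped, and 8 of 15 HS pigs were below the lowest TN pig. The separation within breeds was also full at A_72_P558364 and A_72_P639825. At the other PRDX3 probes between 9 (A_72_P586731) and 14 of the 15 HS pigs were below the lowest TN pig of their breed. The share of all tested probes that separate in this way was not computed.

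The order of the PRDX3 group means was Creole TN (15.19 ± 0.159, SD, n = 3), F1 TN (15.04 ± 0.142, n = 4), LW TN (14.8 ± 0.158, n = 4), Creole HS (14.71 ± 0.271, n = 5), F1 HS (14.6 ± 0.178, n = 5) and LW HS (14.36 ± 0.181, n = 5). The pigs of each neighbouring pair in this order overlapped in level. Heat-stressed Creole pigs differed from TN ones by -0.48, F1 pigs by -0.44 and LW pigs by -0.44. A difference between these values was not detected by limma's test of the interaction (adjusted p-value 0.995).

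Over the 16 PRDX3 probes the difference between HS and TN ranged from -0.62 to -0.45, and the largest adjusted p-value was 0.00198 (limma). The other probes followed the brightest one along the transcript. The probe that starts at base 404 of the target transcript gave -0.50 (SE 0.0939), the one at 755 gave -0.62 (SE 0.104), and the one at 1470 gave -0.51 (SE 0.0794). Correlations between PRDX3 probes over the arrays had a median of 0.931 and ranged from 0.502 to 0.988.

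**Figure D2:**
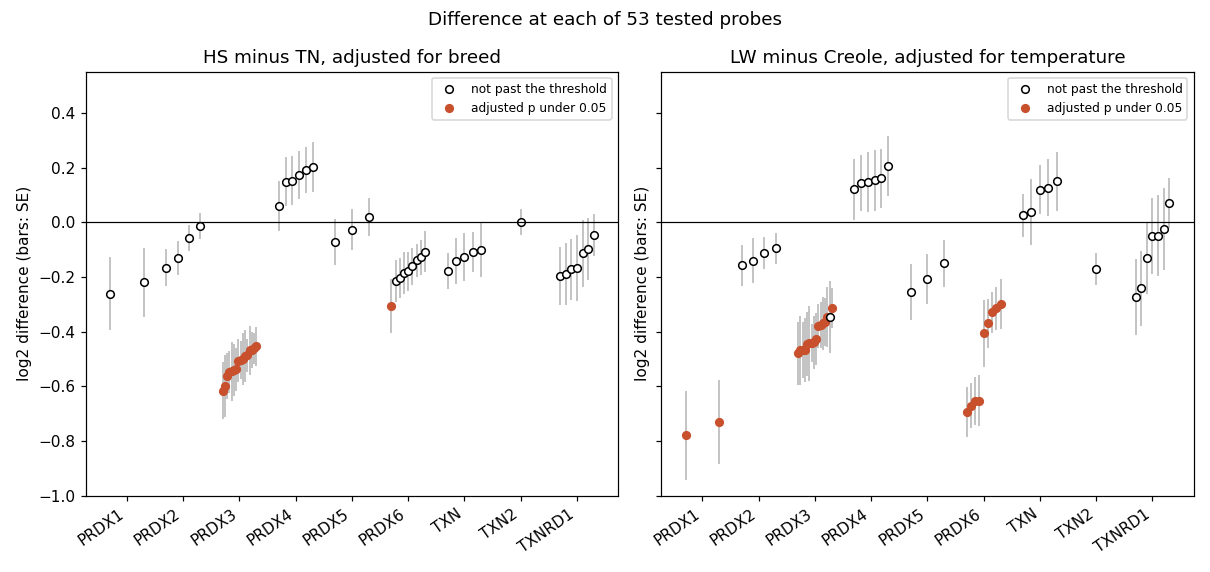
Difference of the log2 signal at each of the 53 tested probes (y axis), grouped by gene (x axis), for HS minus TN and for LW minus Creole, with bars giving the SE. Filled points passed an adjusted p-value of 0.05, with the 16 PRDX3 probes between -0.62 and -0.45 in the first panel and the PRDX1, PRDX3 and PRDX6 probes below 0 in the second.

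The PRDX3 difference was compared directly with that of each other member at its brightest probe (two-sided permutation of temperature within breed, 26 arrays, 8 pairs adjusted together; pairs chosen after the values were seen). PRDX3 fell further than PRDX2 by 0.397 on the log2 scale (adjusted p-value 8e-05, from the smallest p that these permutations can give, 1e-05). It fell further than PRDX6 by 0.325 (adjusted p-value 0.00012), than TXN by 0.346 (0.00143) and than TXNRD1 by 0.287 (0.0186). Against PRDX4 the gap was -0.628 (0.000128) and against PRDX5 -0.472 (0.00012). The pair with TXN2 is not given, since that probe was near background and a dim probe can understate a change. The gap to PRDX1, -0.235, did not pass (0.063).

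Within breeds fewer probes reached the threshold. PRDX3 was called lower at 11 of 16 probes in LW, where 1.09% of all tested probes were called lower. It was called lower at 5 of 16 in F1, beside 0.309% of all tested probes, and at none in Creole, where 0.0626% were called lower and 12 of 16 PRDX3 probes had an unadjusted p under 0.05. All 16 probes had a negative difference in each of the 3 breeds, and the medians were -0.58 (LW), -0.56 (F1) and -0.39 (Creole). The brightest probe itself did not pass within a breed (adjusted p-values 0.18, 0.0974 and 0.0686 in Creole, F1 and LW). The LW count fell to 3 without LW TN replicate 2, and the F1 count to 0 without F1 TN replicate 1 and with slide in the model. Both counts were 0 with the red blood cell score as a covariate. No member probe was called in the interaction, where 0.00224% of all tested probes were called, and 1 member probe had an unadjusted p under 0.05.

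The 5 array slides each held both temperatures. The difference of PRDX3 between HS and TN within slides 1 to 5, with breeds mixed, was -0.613, -0.563, -0.729, -0.277 and -0.207. With slide as a block the difference was -0.47 (adjusted p-value 0.000183). Other measures moved with temperature too. A score of 10 mitochondrial genes, among them CS (citrate synthase) and VDAC1 (the outer membrane channel), was lower in HS by 0.136 (two-sided permutation test, adjusted p-value 0.0021 over 10 lists). In all 5 of its genes were called lower, CS, VDAC1, VDAC2, TFAM and TOMM40, the last well above background on only 9 of 26 arrays. The genes not called lay between -0.06 (HSPD1) and 0.04 (TOMM20). The score ranged from -0.0458 to 0.252 in TN and from -0.196 to 0.117 in HS. A red blood cell score of 5 genes was lower in HS by 0.32 (adjusted p-value 0.0063), with HBB and EPB42 called lower, AHSP at -0.47 (adjusted p-value 0.0521), and ALAS2 and SLC4A1 at 0.04 and 0.06 (0.884 and 0.71). It ranged from -0.0284 to 0.573 in TN and from -0.494 to 0.366 in HS. A fibroblast score was higher by 0.275 (0.0158), with 4 of 6 genes called. With signals scaled to the 75th percentile, the mitochondrial score differed by -0.257 (5e-04), the red blood cell score by -0.332 (0.032), the endothelial score by -0.142 (0.0395) and the fibroblast score by 0.212 (0.0576, not past the threshold). The adipocyte score differed by -0.0107 (adjusted p-value 0.89), and 1 of its 8 genes, ADIPOQ, was called higher in HS. With the red blood cell score as a covariate PRDX3 was lower by -0.36 (adjusted p-value 0.0386) at the brightest probe, and 9 of its 16 probes were called. With the mitochondrial score, an alternative added after the data had been seen, it had -0.35 (0.0962) and 5 of 16 probes were called. The part of these scores in the PRDX3 result was not tested further. In whole tissue, fewer cells of a type and less RNA per cell cannot be told apart.

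The remaining members gave smaller differences between HS and TN. PRDX6 was lower at all 9 probes by 0.11 to 0.31, and its called probe, A_72_P444848, fell by 0.31 (SE 0.1, adjusted p-value 0.046). This call was lost without the filter on dim probes (adjusted p-value 0.061), without a breed term (0.123), with the red blood cell score (-0.12, 0.639) and with the mitochondrial score (-0.03, 0.955). It held in 7 of 26 runs without 1 array, over which the adjusted p-value ran from 0.00737 to 0.0825. With signals scaled to the 75th percentile, 8 of the 9 PRDX6 probes were called lower. The brightest PRDX6 probe had -0.13 (95% interval -0.26 to 0.00, adjusted p-value 0.196). PRDX1 had -0.22 (interval -0.48 to 0.04), with 11 of 15 HS pigs below the TN mean of their breed. It had -0.344, -0.635, -0.777, 0.33 and 0.482 within slides 1 to 5, and -0.00 (-0.003796) with the red blood cell score as a covariate. PRDX2, the abundant peroxiredoxin of red blood cells, had -0.06 (interval -0.16 to 0.04). PRDX5 had 0.02 (interval -0.13 to 0.16). PRDX4 was the member with positive differences at all of its 6 probes (0.06 to 0.20), and its brightest probe had 0.17 (interval -0.01 to 0.36, adjusted p-value 0.205). The cytosolic thioredoxin TXN had -0.11 (interval -0.26 to 0.04) and TXNRD1, the selenoprotein that reduces it, -0.17 (interval -0.42 to 0.08). TXN2 had a single probe, well above background on 21 of 26 arrays, with a mean level of 5.76 and a difference of -0.00 (-0.000235, interval -0.10 to 0.10).

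The second comparison was that between LW and Creole pigs, adjusted for temperature. LW pigs had lower signal at PRDX1, PRDX3 and PRDX6 probes. Whether the breeds differ in the sequence under a probe or in transcript isoforms was not examined, so that a difference of signal between breeds is not by itself one of mRNA amount. Both PRDX1 probes, 15 of 16 PRDX3 probes and all 9 PRDX6 probes were called lower, 26 of the 53 member probes, beside 7.43% of all tested probes called lower and 14.3% called in either direction. No member probe was called higher. At the brightest probe of each gene 3 of 9 members were called, beside 15.3% of named genes. The median difference was -0.30 over the member probes and 0.00 over all tested probes (0.00246).

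PRDX1, the main peroxiredoxin of the cytosol (chr6:165847390-165859918), had the largest difference among the brightest probes, -0.73 (SE 0.154, adjusted p-value 0.0033), to 0.603 of the Creole level. The probe A_72_P412538 gave 14.59, 14.36 and 13.49 in Creole TN, and 13.76, 14.32, 14.14, 14.17 and 13.85 in Creole HS. In LW it gave 13.46, 13.63, 13.71 and 13.56 in TN, and 13.05, 13.13, 13.23, 13.25 and 13.31 in HS. All but 1 of the 8 Creole pigs were above the highest LW pig, and 1 Creole TN pig, at 13.49, lay among the LW pigs. F1 pigs spanned both breeds, with 13.89, 13.69, 14.17 and 13.86 in TN and 13.53, 13.35, 13.18, 14.33 and 14.38 in HS. The SD over LW pigs was 0.229 (n = 9) and over F1 pigs 0.425 (n = 9). The second PRDX1 probe gave -0.78 (SE 0.163).

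PRDX3 at its brightest probe was lower in LW than in Creole by -0.36 (SE 0.087, adjusted p-value 0.00737), with a range of -0.48 to -0.31 over its 16 probes. The probe that did not pass, A_72_P568344, had -0.35 (adjusted p-value 0.0806). Creole pigs ranged from 14.3 to 15.36 with a median of 14.94, and LW pigs from 14.08 to 14.93 with a median of 14.49. The breeds overlapped, and all 9 LW pigs were below the Creole median.

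PRDX6 (chr9:115857629-115868898) was lower in LW at its brightest probe, O4029, by -0.31 (SE 0.0782, adjusted p-value 0.00929). Creole pigs had 13.19, 13.12 and 13.02 in TN and 13.02, 12.92, 13.01, 12.89 and 12.79 in HS. The LW pigs had 12.73, 12.89, 12.92 and 12.54 in TN and 12.44, 12.75, 12.41, 12.68 and 12.84 in HS. Of the 9 LW pigs, 6 were below the lowest Creole pig. The F1 pigs ranged from 12.69 to 13.15.

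The PRDX6 probes gave breed differences of unequal size. Of the probes with a stated start on the PRDX6 transcript, the 4 that start between bases 379 and 686, among them both probes printed above, gave differences of -0.69 to -0.65. The 2 that start at 1330 and 1586 gave -0.37 and -0.30. The mean of the first set was lower in LW by 0.667 and that of the second by 0.339. The split at base 700 was chosen after the values were seen, so that this is a description with no test. A further probe, A_72_P444848 (-0.41), starts at base 998 of another target sequence and shares 32 bases with the probe that starts at 1330. The brightest probe O4029 (-0.31) and A_72_P165176 (-0.33) have no stated start. Each shares 29 bases with the probe that starts at 1586. These probes overlap the second set and are not counted in it.

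The level of the first set minus that of the second varied most among Creole pigs. It was 0.382, 0.341 and 1.03 in the Creole TN pigs and 0.839, 0.68, 0.334, 0.385 and 0.949 in the Creole HS pigs. LW pigs ranged from 0.185 to 0.517 and F1 pigs from 0.173 to 0.581. Thus 4 Creole pigs were above all LW and F1 pigs, and the other 4 lay within their range. The size of this contrast has no meaning across probes, only its variation between pigs has. In PRDX3 the breed difference was -0.48 (SE 0.115) at the probe that starts at base 404 and -0.37 (SE 0.0972) at the one that starts at base 1470.

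**Figure D3:**
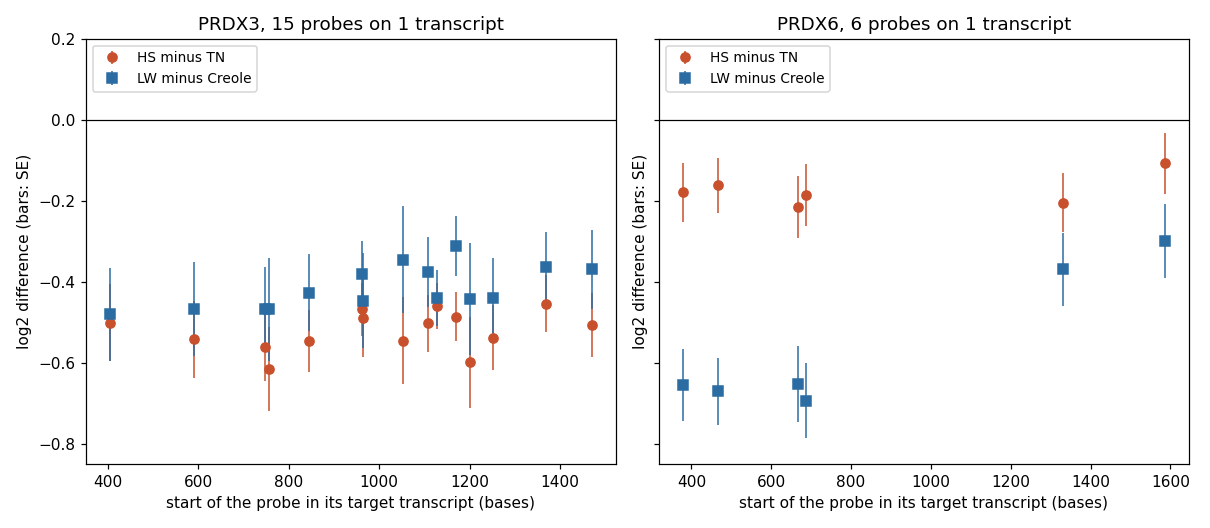
Difference of the log2 signal at each probe (y axis, bars give the SE) against the base of the target transcript at which the probe starts (x axis), for 15 PRDX3 and 6 PRDX6 probes with a stated start on the gene's transcript. With circles for HS minus TN and squares for LW minus Creole, the PRDX6 squares lie at -0.69 to -0.65 before base 700 and at -0.37 and -0.30 after it, while PRDX3 squares lie between -0.48 and -0.31.

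**Figure D4:**
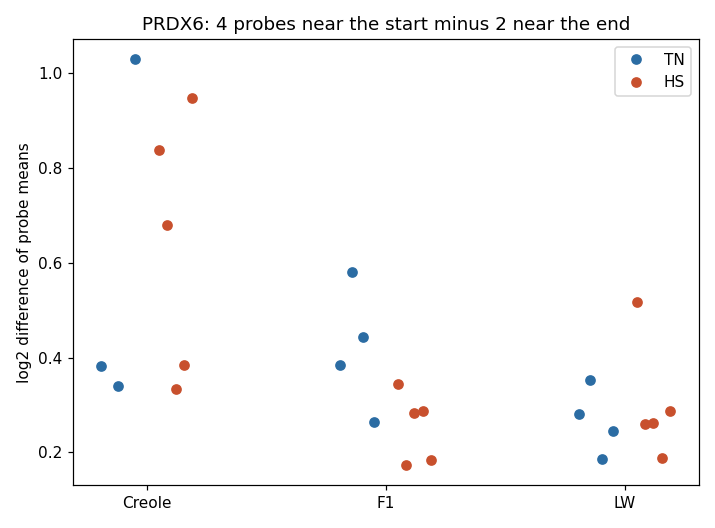
Mean log2 level of the 4 PRDX6 probes near the start minus that of the 2 probes near the end (y axis) in each pig, by breed (x axis), blue for TN and red for HS. Of the 8 Creole pigs, 4 lie between 0.68 and 1.03, above the highest LW and F1 pigs at 0.517 and 0.581.

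Slides and cell markers were set beside the breed differences. Within slides 2 to 5, which held both breeds, the LW minus Creole difference with temperatures mixed was -1.36, -1.04, -0.468 and -0.216 for PRDX1 and -0.459, -0.517, -0.109 and -0.056 for PRDX6. For PRDX3 it was -0.632, -0.741 and -0.202 on slides 2 to 4 and 0.404 on slide 5, where 1 Creole HS pig met 2 LW TN pigs. With slide as a block the adjusted p-values were 0.00487 for PRDX1, 0.0158 for PRDX3 and 0.0157 for PRDX6. The adipocyte score was lower in LW by 0.219 (exact permutation test within temperature, adjusted p-value 0.0034 over 10 lists). It ranged from 0.0139 to 0.396 in Creole and from -0.24 to 0.0187 in LW, and 1 of its 8 genes, LEP (leptin), was called. LEP had -1.23 and the other 7 genes lay between -0.16 and 0.00, and without LEP the score differed by -0.0727 (exact permutation test, p = 0.0957). The mitochondrial score was lower by 0.145 (0.0034), the endothelial score higher by 0.217 (0.00757) and the fibroblast score higher by 0.362 (0.0255). Of the 7 endothelial genes only KDR was called (0.87, limma adjusted p-value 0.00136), and the others lay between -0.05 and 0.23. In a model with the adipocyte score, added after the data had been seen, the differences were -0.49 for PRDX1, -0.23 for PRDX3 and -0.25 for PRDX6, with adjusted p-values of 0.273, 0.368 and 0.285. With that score without LEP they were -0.74, -0.33 and -0.32 and passed (0.0111, 0.0322 and 0.0261). With the mitochondrial score, also added then, they were -0.45, -0.25 and -0.17, with adjusted p-values of 0.294, 0.335 and 0.465. With the full adipocyte score, and likewise with the mitochondrial score, no PRDX1 or PRDX3 probe and 4 of 9 PRDX6 probes were called, the brightest not among them. The full adipocyte score's ranges of the breeds met only between 0.0139 and 0.0187, and the part of the markers in the breed differences was not tested further.

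The other members did not differ between LW and Creole at the threshold. TXN2 came closest, with -0.17 (SE 0.0589, adjusted p-value 0.0536), and passed in 5 of 26 runs without 1 array (lowest adjusted p-value 0.0261). With signals scaled to the 75th percentile it had -0.44 and did not pass (0.0964). PRDX5 had -0.15 (interval -0.33 to 0.02), PRDX2 -0.11 (interval -0.23 to 0.01) and TXNRD1 -0.05 (interval -0.36 to 0.26). PRDX4 had 0.16 (interval -0.06 to 0.38) and TXN 0.12 (interval -0.07 to 0.30), and both genes had positive differences at all of their probes, O7867 of the opposite strand included for TXN (0.03).

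The third comparison asked whether F1 pigs lay apart from the mean of both parental breeds. No member probe was called, beside 0.00671% of all tested probes. At the brightest probes the difference ranged from -0.18 in PRDX4 (SE 0.0914, adjusted p-value 0.607) to 0.23 in TXNRD1 (SE 0.127, adjusted p-value 0.63). For the genes that differed between the parents it was 0.08 in PRDX1 (interval -0.19 to 0.35), 0.06 in PRDX3 (interval -0.09 to 0.21) and 0.08 in PRDX6 (interval -0.06 to 0.22).

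The members varied partly together from pig to pig. After the group means were removed, PRDX1 and PRDX6 correlated at 0.618 over the 26 arrays, PRDX2 and PRDX3 at 0.606, PRDX2 and TXN at 0.604, and PRDX3 and TXNRD1 at 0.541. PRDX4 went the other way to TXN, at -0.455. These are descriptions, and all points share the normalization of their array.

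The level of each member was set against the mitochondrial and the red blood cell scores over the 26 arrays, with group means removed (permutation within groups, two-sided, 18 relations). PRDX5 correlated with the mitochondrial score at r = 0.602 (adjusted p-value 0.0396, rho = 0.588, adjusted p-value 0.0756). PRDX2 did so at r = 0.575 (adjusted p-value 0.0435, rho = 0.563, adjusted p-value 0.0756). PRDX3 had r = 0.35 (adjusted p-value 0.265, rho = 0.316, adjusted p-value 0.349), with -0.407 within TN pigs and 0.724 within HS pigs. Without the 2 arrays farthest from the median score the r values were 0.594, 0.545 and 0.389, and when all 18 relations were repeated without them none passed (0.187 for PRDX5 and 0.311 for PRDX2). The red blood cell score gave no relation past the threshold, including PRDX2 (r = 0.194, adjusted p-value 0.624, rho = 0.121, adjusted p-value 0.727). Each slide held 4 to 7 arrays of several groups, too few for a value within slides.

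**Figure D5:**
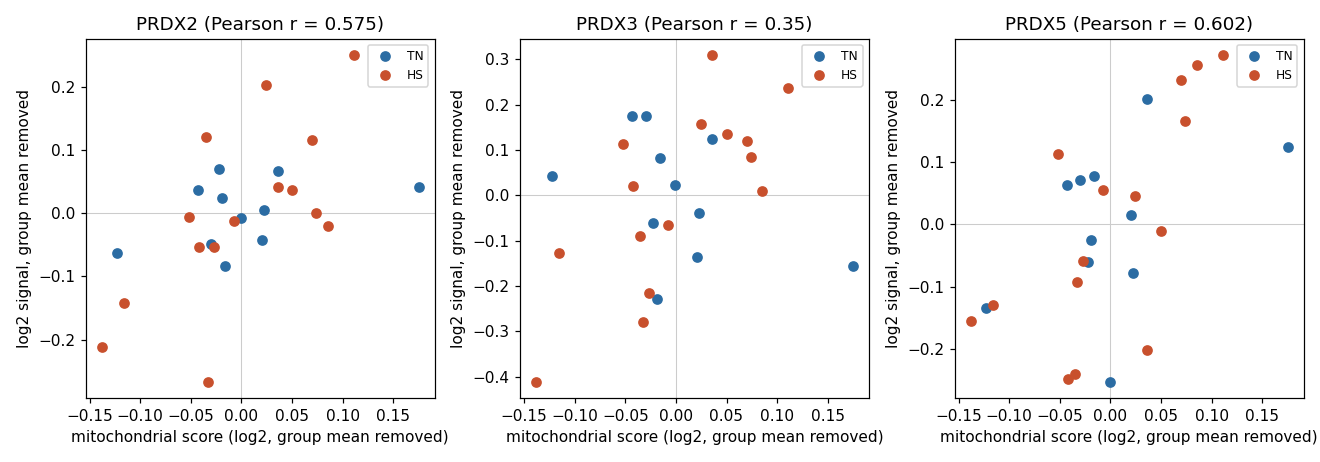
Level of PRDX2, PRDX3 and PRDX5 at the brightest probe (y axis, log2 signal with the group mean removed) against the mitochondrial score (x axis, log2 with the group mean removed) in 26 pigs, blue for TN and red for HS. Pearson's r is 0.575, 0.35 and 0.602, and the TN point at the far right has a high score and a PRDX3 level below its group mean.

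Genes with the most similar profile were sought among 10128 named genes, without the members. Pearson's r of the level over the 26 arrays was used, with group means kept. For PRDX3 they were GHITM (0.899) and ND4 (0.898), which encode proteins of the inner mitochondrial membrane, and the biliverdin reductase BLVRB (0.897). For PRDX1 they were MTFP1 (0.877), UQCC (0.858) and MRPL35 (0.844), and for PRDX6 COQ5 (0.866), MRPL35 (0.86) and UQCR10 (0.854). For PRDX2 they were COX6B (0.841), ROMO1 (0.828) and UQCR11 (0.812), and for PRDX5 NUDT19 (0.672), TMEM97 (0.669) and NDUFB11 (0.643). PRDX4 had the matrix genes VCAN (0.898) and OGN (0.883), and CNPY2 (0.869). TXNRD1 had ZFYVE27 (0.836), SEPHS2 (0.812) and COQ10B (0.789). For TXN2 they were CHCHD10 (0.781), FKBP4 (0.758) and GYS1 (0.743), and for TXN LOC396781 (0.777), GPR83 (0.708) and PDZK1 (0.67). Differences between breeds and temperatures enter these values. With group means removed, r with PRDX3 was 0.722 for GHITM, 0.698 for ND4 and 0.704 for BLVRB, and r of MTFP1 with PRDX1 was 0.784. For some genes it was higher, such as TMEM97 with PRDX5 (0.754). Symbols are those of the array files.

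Of the 52 genes in 7 lists of partners and neighbouring pathways, 45 were measured. Under heat 8 fell and 1 rose, with a median of -0.12, beside a median of -0.00 (-0.00467) over all named genes, of which 7.66% were called lower and 4.87% higher. Between LW and Creole 6 were lower and 2 higher, beside 8.61% and 6.65% of all named genes.

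Among the 10 measured partners of thioredoxin and peroxiredoxin, 3 fell and 1 rose under heat. SRXN1, the sulfiredoxin that repairs overoxidized peroxiredoxins, fell by 0.51 (SE 0.127, adjusted p-value 0.0108), but at 1 of its 2 probes only. RRM2, a subunit of ribonucleotide reductase, which takes electrons from thioredoxin, fell by 0.90 (SE 0.19, adjusted p-value 0.00313) at its 1 tested probe. TXNL1, a thioredoxin-like protein, fell by 0.23 (SE 0.0496, adjusted p-value 0.00391) and was called at all 3 probes. MAP3K5, a kinase bound by thioredoxin, rose by 0.22 (SE 0.0714, adjusted p-value 0.0402) at its 1 tested probe, a dim one with a mean level of 6.58. TXNIP, the thioredoxin inhibitor, had 0.13 (adjusted p-value 0.708), and the mitochondrial reductase TXNRD2 had -0.01 (adjusted p-value 0.957).

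Mitochondrial NADPH supply was represented by 2 genes. NNT, the transhydrogenase of the inner membrane, fell by 0.23 under heat (SE 0.0423, adjusted p-value 0.00124), with 15 of 15 HS pigs below the TN mean of their breed. NNT had 1 tested probe, a dim one with a mean level of 6.23. It was also lower in LW than in Creole, by -0.21 (adjusted p-value 0.00843). IDH2, the NADP-dependent isocitrate dehydrogenase of mitochondria, had -0.06 under heat (adjusted p-value 0.578) and was higher in LW by 0.23 (adjusted p-value 0.0401, 2 of 6 probes called).

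Among the 4 genes of the NRF2 list, NQO1, a quinone reductase, fell by 0.86 under heat (SE 0.0967, adjusted p-value 2.6e-05), at 3 of 3 probes and in 15 of 15 HS pigs. NFE2L2 (-0.10), KEAP1 (-0.09) and HMOX1 (-0.05) did not pass. Of 6 genes for the making of selenoproteins, the class to which TXNRD1 belongs, the selenophosphate synthetases SEPHS1 (-0.20, adjusted p-value 0.0212, 1 of 2 probes) and SEPHS2 (-0.25, adjusted p-value 0.0181, 3 of 4 probes) fell under heat.

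Among 9 glutathione enzymes, GSR, the glutathione reductase, fell under heat by 0.29 (SE 0.0701, adjusted p-value 0.00766, 1 of 2 probes). GCLM, the modifier subunit of glutathione synthesis, was lower in LW than in Creole by -0.55 (adjusted p-value 0.00874, 3 of 4 probes). None of the 8 glutaredoxins and methionine sulfoxide reductases passed under heat, and GLRX2 (-0.20, adjusted p-value 0.0461) and MSRA (-0.28, adjusted p-value 0.0226) were lower in LW. The 6 measured oxidoreductases of the endoplasmic reticulum, the compartment of PRDX4, gave no call at the brightest probe in either comparison, with medians of 0.05 and -0.02. The remaining breed calls in the partner list were TXNRD2 (-0.22, adjusted p-value 0.0486) and the sestrin SESN1 (-0.34, adjusted p-value 0.0437), both lower in LW, and MAP3K5 (0.32, adjusted p-value 0.0171), higher in LW.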

How the data were processed

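The members and gene lists were chosen with earlier results of these data known. The authors deposited scanner files (Agilent Feature Extraction 10.10.1.1, per the submitters' processing notes) with the median, mean, background and processed intensity of each spot, not normalized between arrays. The normalized values deposited by the authors are log2 intensities of 44104 probes. They correlated at 0.999997 or more with the values computed here and served as an alternative, and their filter is not given in the sources used here. As in the study's methods, the median signal was quantile-normalized with no background correction, then log2-transformed (R 4.3.3, limma 3.58.1). Spots marked non-uniform were set to missing, and none was saturated. Between 68.51% and 76.58% of the spots on an array were well above background. Probes that reached this on 8 or more arrays, 44703 in number, entered lmFit and eBayes (trend along the mean level). Breed and temperature were fixed effects, and 6 group means served for the interaction and for each breed alone. Adjusted p-values are Benjamini-Hochberg values over the 44703 probes (threshold 0.05), and 95% intervals use limma's t quantile. Pen, slaughter day and parents, random effects in the study's model, are not in the labels and were left out. The number of arrays limits the precision.

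Probes were named through accession, symbol, synonym or description, with gene positions from RefSeq (Sscrofa11.1). Of 60306 spots 35897 had no name, and 10137 named genes were tested. The brightest tested probe stood for a gene. All members are reported, list genes are named where they passed in the heat or the breed comparison, and the 3 genes of highest correlation are named for each member. A score was the mean over a list of the log2 level minus the gene's mean over arrays. Permutation tests drew 100000 rearrangements, or all of them where called exact. On data simulated with 200 changed probes, the model recovered 86 of 100 changes of 0.5 and 98 of 100 changes of 1 (log2) between HS and TN, with 11 false calls. Between LW and Creole it recovered 66 and 96 of 100, with 10 false calls. Also tried were other normalizations and filters, slide, array weights, no trend, no breed term, marker scores as covariates, the mean over a gene's probes, and leaving out each array.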

Additional observations from a re-analysis of the deposited data

Results flagged for a closer look

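Of 45 sets of 4 or 5 arrays, 1 for each gene and group, 2 held an array that stood apart from its group by Dixon's criterion at the 95% level, and chance gives about 1 in 20. PRDX4 was at 13.07 in LW TN replicate 1, while the other 3 LW TN pigs lay between 12.83 and 12.86. TXN2 was at 5.997 in F1 TN replicate 3, while the other 3 F1 TN pigs lay between 5.625 and 5.668, near the background of this probe. PRDX4 and TXN2 were not called at their brightest probe with the processing used in the report, and TXN2 passed between LW and Creole with array weights and with normexp.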

How the results depend on the processing

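At its brightest probe, or as the mean of its probes, the lowering of PRDX3 by heat kept its sign and passed under 11 alternatives (-0.58 to -0.36) and without each array (-0.48 to -0.42). Of 3 covariates added after the data had been seen, it did not pass with the mitochondrial score (-0.35, adjusted p-value 0.0962). Of the 16 PRDX3 probes, 9 were called with the red blood cell score, 5 with the mitochondrial score and all 16 otherwise. The LW minus Creole differences of PRDX1, PRDX3 and PRDX6 kept their sign and passed under 10 alternatives each and without each array. Of the added covariates, they passed at the brightest probe with the adipocyte score without LEP, and not with the full adipocyte or the mitochondrial score. No paired analysis was possible because the labels carry no replicate numbers and do not name the litters. The arrays give signal well above background at all 26 arrays for the brightest probe of each member but TXN2, and the number of pigs limits the precision of these tests.

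Of the member probes, 17 were called in HS minus TN. This became 9 with the red blood cell score as a covariate, 26 with the processed signal scaled to the 75th percentile and 5 with the mitochondrial score (16 to 19 without 1 array). Of the 26 with the 75th percentile, 16 were PRDX3 and 8 PRDX6 probes and none was a PRDX1 probe. The rest belonged to members with no call in the main fit. In LW minus Creole, 26 became 4 with the adipocyte score and 4 with the mitochondrial score, all of them PRDX6 probes, but 19 with the adipocyte score without LEP (23 to 28 without 1 array). Within F1, 5 became 2 without the filter on dim probes, 3 with the 75th percentile, 12 with array weights, and 0 with slide, the red blood cell score, the mitochondrial score or the adipocyte score without LEP. Leaving out 1 array gave 0 (without F1 TN replicate 1) to 10 (without Creole HS replicate 5). Within LW, 11 became 0 with the red blood cell score, 0 with the mitochondrial score and 0 with the adipocyte score without LEP. Leaving out 1 array gave 3 (without LW TN replicate 2) to 14 (without Creole HS replicate 5). Member calls stayed at 0 in F1 minus mid-parent, in the interaction and within Creole in all these runs. Over all tested probes, 5447 calls in HS minus TN became 528 with the red blood cell score, 3531 with no breed term and 178 with the mitochondrial score. In LW minus Creole 6401 became 362 with the adipocyte score, 3719 with that score without LEP and 284 with the mitochondrial score. Of the 18 relations to the scores, 2 passed, both to the mitochondrial score. This became 7 when group means were kept, 6 to the mitochondrial score and 1 of PRDX3 to the red blood cell score (r = 0.544, adjusted p-value 0.0143, permutation test), and 0 without the 2 arrays farthest from the median.

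Small differences changed sign. In HS minus TN the mitochondrial score as a covariate gave 0.04073 for PRDX1, 0.05349 for PRDX2, 0.004763 for PRDX6, 0.0165 for TXN and 0.1002 for TXN2. TXN2 was also above 0 with slide (0.0006133), array weights (0.00603), the red blood cell score (0.01025), no breed term (0.005717), the 75th percentile (0.01886) and the adipocyte score (0.001154). PRDX5 was -0.1084 with the 75th percentile and -0.02715 as the mean of its probes. In LW minus Creole the mitochondrial score gave 0.005012 for PRDX2, 0.05804 for PRDX5 and 0.1047 for TXNRD1, and the adipocyte score gave 0.3389 for TXNRD1. Without 1 array, PRDX5 ranged from -0.004904 to 0.04682 and TXN2 from -0.01845 to 0.02045 in HS minus TN, TXNRD1 from -0.1356 to 0.05431 in LW minus Creole, and PRDX1 from -0.004091 to 0.1554 in F1 minus mid-parent. PRDX6 passed in HS minus TN with the 75th percentile (-0.21, adjusted p-value 0.0466), and TXN2 passed in LW minus Creole with array weights (-0.19, 0.0243) and normexp (-0.13, 0.025) and in 5 of 26 runs without 1 array. Without added covariates its difference ran from -0.4384, with the 75th percentile (0.0964), to -0.1304, and the mitochondrial score gave -0.06 (0.79). The cause of these changes was not tested.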
